A study of Mus musculus with 24 samples.

Results

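A set of 8 genes that mark macrophages or their alternative activation was followed through the distal jejunum of mice given succinate: Chil3, Retnla, Mrc1, Adgre1, Csf1r, Cx3cr1, Cd68 and Itgax. They were chosen by gene name, and they are 8 of the 56691 genes in the count table. All 8 had reads, and all 8 passed the filter on low counts when the 24 libraries were fitted together, as did 21694 genes in all. Bulk RNA of the distal jejunum was sequenced from 24 mice, 3 in each of 8 groups set by sex, genotype and water. Wild-type mice and mice with a germline knockout of Ptk6 (Ptk6-/-), an epithelial tyrosine kinase, came from 1 colony on a C57BL/6 background and were 9 to 11 weeks old at the end of the experiments. The treatment was 100 mM succinate in the drinking water for 7 days, and the control groups drank regular water. The comparisons ask whether succinate moved these genes, and whether sex or Ptk6 altered that response.

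Alternatively activated macrophages are those shaped by interleukin-4 and interleukin-13, which act through a shared receptor and the transcription factor STAT6. The chitinase-like protein Ym1 (Chil3), the resistin-like molecule alpha (Retnla) and the mannose receptor CD206 (Mrc1) are among the classic mouse readouts of that state. Csf1r is the receptor for the growth factors that keep macrophages alive, Adgre1 encodes the surface antigen most used to stain mouse macrophages, Cx3cr1 is the fractalkine receptor of gut-resident macrophages, Cd68 encodes a lysosomal glycoprotein of phagocytes, and Itgax encodes CD11c, shared by gut macrophages and dendritic cells. Succinate in the gut lumen is sensed by tuft cells, whose interleukin-25 drives type 2 lymphocytes to make interleukin-13.

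Total counts lay between 8080321 and 52824743 per library. A pair of libraries stood apart: in wild-type control male replicate 1, 51.2% of all counts were 18S ribosomal RNA, in Ptk6-/- succinate male replicate 1 it was 29.7%, and elsewhere at most 4.49%. A count of 3, taken as the floor, was worth between 0.0509 and 0.823 CPM (counts scaled to a common library total by the trimmed mean of M values, TMM), highest in that Ptk6-/- male. Heart transcripts were abundant in wild-type succinate female replicate 2, with 278018 counts of Myh6. Lung transcripts (Scgb1a1 and Sftpc) reached 209 to 404 and 72 to 170 counts in wild-type succinate female replicate 3 and all 6 Ptk6-/- females, and 0 to 9 in the other 17 libraries. Ptk6 itself was at 9.21 to 48.8 CPM in the 12 wild-type libraries and 0.305 to 1.92 CPM in the 12 Ptk6-/- libraries. The macrophage markers C1qa, C1qb and C1qc, subunits of complement C1q made by tissue macrophages, had at least 316 counts in every library.

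Per unit of transcript length, Csf1r and Cd68 led the 8 genes. Their median FPKM (fragments per kilobase of transcript, scaled to the mapped total, as the authors computed it) was 6.12 and 5.15 over the 24 libraries, and Csf1r was the higher of the pair in 15 libraries only. Itgax followed at 2.44, below Cd68 in all 24 libraries. Retnla, at 1.82, had by far the widest range, from 0 to 95.8 FPKM. Cx3cr1 (1.23), Adgre1 (1.01) and Mrc1 (0.846) were close to each other, and Cx3cr1 exceeded Adgre1 in 16 libraries while Adgre1 exceeded Mrc1 in 19. Chil3 was the lowest at 0.0437, and Mrc1 exceeded it in 21 libraries. Neighbours in this order therefore separated in every library only from Cd68 to Itgax.

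**Figure D1:**
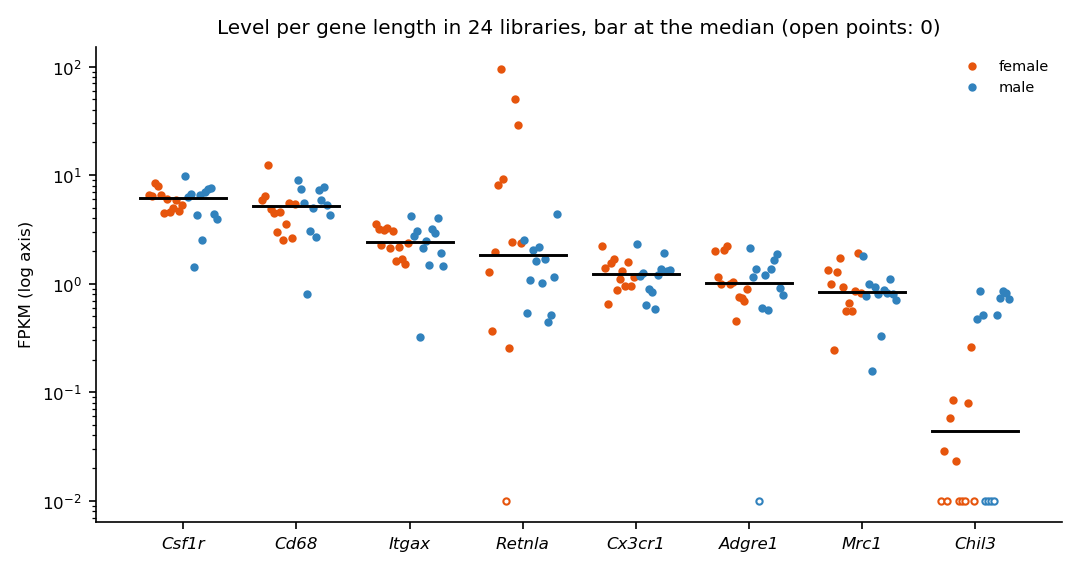
FPKM of each of the 8 genes (log axis) in 24 libraries, with females in orange, males in blue, a bar at the median and open points at the bottom for a listed value of 0. Medians fall from 6.12 for Csf1r to 0.0437 for Chil3, and Retnla alone spreads up to 95.8, in females.

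Retnla, which encodes a small secreted cysteine-rich protein, was the only gene of the 8 that edgeR called for succinate. edgeR called it in averages over groups and in no single stratum. In wild-type females its level was 0, 0.238 and 2.01 CPM on water and 42.5, 24.6 and 1.83 CPM on succinate. Replicates 1 and 2 on succinate were thus more than an order of magnitude above every control, and replicate 3 lay within the control range. In Ptk6-/- females it was 0.921, 0.297 and 1.96 CPM on water and 5.67, 75.3 and 6.05 CPM on succinate, with no overlap, as in 11.2% of all genes. In raw reads that is 14 to 68 counts in the controls and 315, 3815 and 357 counts after succinate. In males the levels stayed lower. Wild-type males had 1.78, 1.27 and 0.344 CPM on water and 0.352, 0.971 and 3.67 CPM on succinate. Ptk6-/- males had 1.72, 0.418 and 0.871 CPM on water and 5.49, 1.37 and 1.75 CPM on succinate. Controls and succinate libraries overlapped in both groups of males, and the value of 5.49 comes from 20 counts in the shallowest library.

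**Figure D2:**
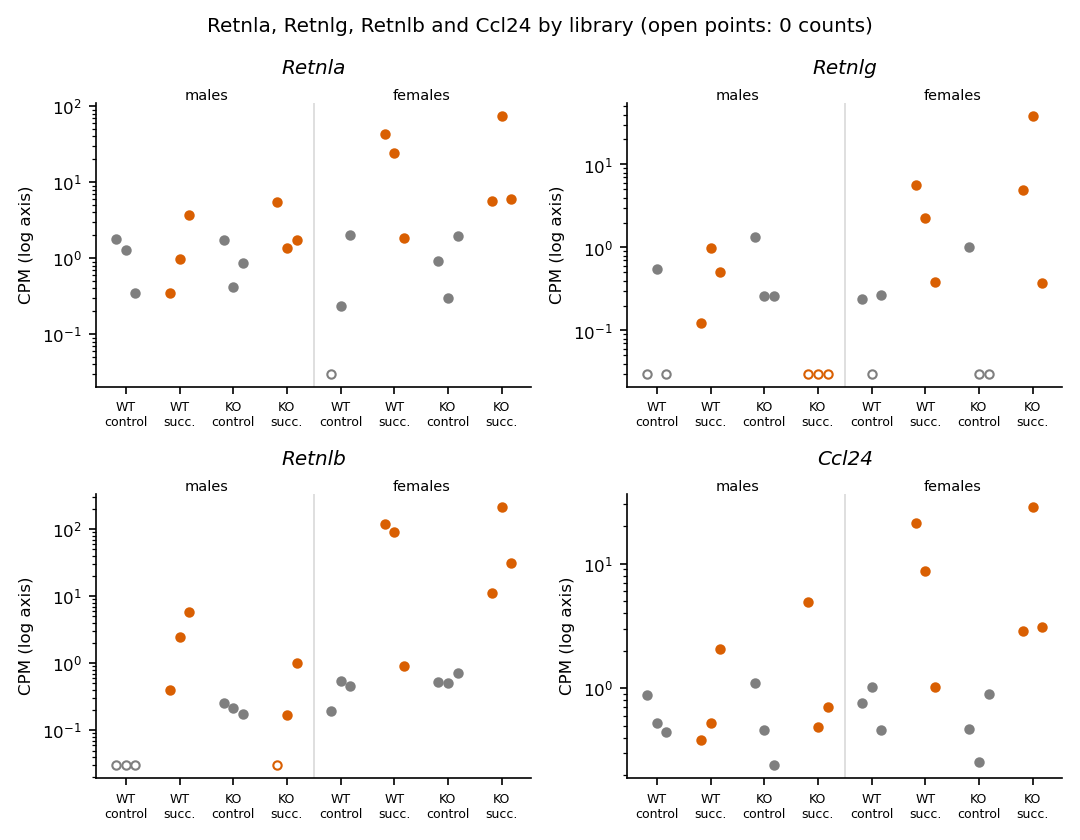
CPM (log axis) of Retnla, its neighbour Retnlg, its epithelial relative Retnlb and the chemokine gene Ccl24 in each of the 24 libraries, control in grey and succinate in orange, with open points at the bottom for libraries with 0 counts. The 3 highest values of Retnla, Retnlb and Ccl24 belong to wild-type succinate female replicates 1 and 2 and Ptk6-/- succinate female replicate 2, and those of Retnlg to wild-type replicate 1 and Ptk6-/- replicates 1 and 2, while wild-type succinate female replicate 3 stays low.

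Averaged over sex and genotype in 1 fit of the 24 libraries, Retnla was higher on succinate by 2.91 on the log2 scale (SE 0.66), a 7.53-fold difference, with an edgeR adjusted p of 0.0354. The call covered 1 of the 8 genes and 0.728% of all genes tested. An exact two-sided permutation test of this single gene, exchanging treatments within each of the 4 sex and genotype strata, gave p = 0.00236 over 160000 arrangements, for a gene singled out after its values were known. In the same fit the average difference over the 2 groups of females was 4.86 (SE 1.00, adjusted p 0.0107 by edgeR), where 2.06% of genes were called. Over the 2 groups of males it was 0.97 (SE 0.92, adjusted p 0.788 by edgeR), where 0.00461% of genes were called. Within single strata edgeR called no member. It called 0% of all genes in wild-type males, Ptk6-/- males and wild-type females, and 0.0879% in Ptk6-/- females. At an unadjusted p under 0.05 there were 0, 2, 2 and 2 members in wild-type males, Ptk6-/- males, wild-type females and Ptk6-/- females, where 4.07%, 7.75%, 7.77% and 10.7% of all genes were. Wild-type females differed by 4.96 (SE 1.60, edgeR adjusted p 0.617) and Ptk6-/- females by 4.76 (SE 1.24, edgeR adjusted p 0.339). Single libraries moved both: the first was 4.14 without succinate replicate 1 and 7.59 without control replicate 3, and the second was 2.45 without succinate replicate 2 and 5.55 without control replicate 3. These bulk values cannot tell more cells of a type from more RNA per cell. The difference between the sexes did not pass its own test, at 4.32 (SE 1.83, edgeR adjusted p 0.769) in wild-type mice and 3.46 (SE 1.83, edgeR adjusted p 0.613) in Ptk6-/- mice, or 6.94 without wild-type control female replicate 3 and 1.14 without Ptk6-/- succinate female replicate 2. The genotypes (Ptk6-/- minus wild type) differed by -0.15 (SE 1.72) in their response in females and by 0.71 (SE 1.82) in males, neither called by edgeR. The succinate difference was 0.59 (SE 0.92) in wild-type males and 1.43 (SE 0.78) in Ptk6-/- males.

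The Retnla call depended on which library was left out. It was lost in 16 of the 24 fits that left out 1 library, with log2 differences between 2.34 and 3.57 and adjusted p between 0.00717 and 0.1004. The weakest came without Ptk6-/- succinate female replicate 2, the library with 3815 counts (2.34, adjusted p 0.1004). Without wild-type succinate female replicate 2, which carried the heart transcripts, the difference was 2.90 (adjusted p 0.0578), and without the 2 libraries rich in 18S ribosomal RNA it was 2.84 (adjusted p 0.0879). The direction was the same in all of these fits.

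Transcripts of other tissues were set beside Retnla, which is also known from airway epithelium and white fat. The summed level of 12 lung genes was 17.3 to 24.02 CPM in Ptk6-/- control females, where Retnla was low, and 12.2 to 18.2 CPM in Ptk6-/- succinate females, where it was high. Among wild-type succinate females, lung genes were highest (22.7 CPM) in replicate 3, the library with the lowest Retnla. The adipose gene Adipoq had 135, 20 and 1037 counts in wild-type succinate females and 987, 22 and 3 in Ptk6-/- succinate females. The sum of 7 adipose genes ran from 78.3 to 349 CPM in wild-type and from 97.2 to 245 CPM in Ptk6-/- succinate females, against 39.5 to 183 and 100.1 to 152 CPM in their controls. The sum of 6 smooth muscle genes was high in the wild-type females with high Retnla, at 7649, 7441 and 3859 CPM in wild-type succinate females against 3225 to 4122 CPM in their controls, and 3695, 5150 and 4486 CPM in Ptk6-/- succinate females against 2057 to 4643 CPM. Pearson's r of Retnla with these 6 genes over the 24 libraries ran from -0.16 for Myh11 to 0.62 for Actg2, and 5 of the 6 were positive. The part of lung, fat or muscle in the Retnla values was not tested.

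Retnla sits upstream of its relative Retnlg, on the same strand of chromosome 16, and the STAT6 binding palindrome that interleukin-4 and interleukin-13 use can be looked for in the 250 bases before each start site. These windows come from a RefSeq table of promoters (GRCm38.p6) and are read on the strand of the gene. Capitals mark matches to TTCNNNNGAA or TTCNNNGAA, both searched on both strands, which for these palindromes is 1 search, and neither can overlap the other at the same start. They are shown because Retnla is the gene that edgeR called for succinate, Retnlg is its neighbour and relative and Chil3 is the other secreted marker with a pattern of its own. Retnla lies at chr16:48842359-48842608 (plus strand), Retnlg at chr16:48872358-48872607 (plus strand) and Chil3 at chr3:106167565-106167814 (minus strand).
Retnla: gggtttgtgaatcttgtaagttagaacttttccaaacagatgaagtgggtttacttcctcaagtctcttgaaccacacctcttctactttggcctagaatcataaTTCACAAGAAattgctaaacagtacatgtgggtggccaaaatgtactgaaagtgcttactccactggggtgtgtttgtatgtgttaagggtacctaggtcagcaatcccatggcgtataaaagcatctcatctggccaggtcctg
Retnlg: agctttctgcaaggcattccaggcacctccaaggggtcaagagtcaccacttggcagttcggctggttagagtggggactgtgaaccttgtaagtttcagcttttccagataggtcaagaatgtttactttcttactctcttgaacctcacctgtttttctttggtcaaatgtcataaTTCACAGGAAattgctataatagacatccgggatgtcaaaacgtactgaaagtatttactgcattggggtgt
Chil3: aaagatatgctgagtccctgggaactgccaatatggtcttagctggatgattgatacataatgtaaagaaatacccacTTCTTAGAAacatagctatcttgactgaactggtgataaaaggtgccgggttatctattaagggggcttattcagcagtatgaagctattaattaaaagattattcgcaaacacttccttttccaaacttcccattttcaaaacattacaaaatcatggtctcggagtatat

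The Retnla window holds TTCACAAGAA from 145 to 136 bases before the start site, and the Retnlg window holds TTCACAGGAA from 72 to 63 bases before its own. Over 175 aligned bases the windows of Retnla and Retnlg are 78.9% identical. Of the 8 genes, 6 had an entry in the table: the window of Itgax also has a match (TTCCCTGGAA), those of Mrc1, Cx3cr1 and Cd68 have none, and Adgre1 and Csf1r were not matched. TTCNNNNGAA occurs in 5.85% and TTCNNNGAA in 7.02% of the 32851 windows of that length in the table. A match is a run of letters and not a measured binding site.

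Retnlg followed Retnla only in part. It had 11, 0 and 12 counts in wild-type control females and 242, 69 and 15 after succinate. In Ptk6-/- females it had 43, 0 and 0 counts on water and 276, 1968 and 22 after succinate. Both genes peaked in Ptk6-/- succinate female replicate 2, but replicates 1 and 3 of that group, alike in Retnla, differed in Retnlg, and Pearson's r between the genes was 0.51 over the 24 libraries. None of the 50-base stretches of the Retnla transcript is shared with another gene in GENCODE vM21, so reads of these relatives can be kept apart. Retnlg is known mainly from neutrophils and bone marrow, and the neutrophil gene S100a8 had 0 counts in all 6 female controls, 0, 12 and 9 in wild-type and 4, 25 and 17 in Ptk6-/- succinate females. The average succinate contrast of females called S100a8 as higher (edgeR adjusted p 0.00876). In males S100a8 was at -4.58 and not called (edgeR adjusted p 0.651), and its sex by succinate difference was called in Ptk6-/- mice (edgeR adjusted p 0.0333), where the male succinate group has 0 counts, and not in wild-type mice (edgeR adjusted p 0.741). Its part in the Retnlg values was not tested.

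The partners of alternative activation were less uniform. Of 18 genes of the interleukin-4 and interleukin-13 axis, 17 were tested, 2 rose and none fell in the average over sex and genotype, with a median log2 difference of 0.09 against -0.0025 over all genes. Retnlb, an antimicrobial resistin-like protein of goblet cells, rose by 6.47 (SE 0.84, edgeR adjusted p 0.000341). Ccl24, the eosinophil attractant eotaxin-2 made by macrophages, rose by 2.59 (SE 0.54, edgeR adjusted p 0.0214). Ccl24 had 925, 270 and 40 counts in wild-type succinate females and 161, 1447 and 183 in Ptk6-/- succinate females, against 12 to 47 in the 6 female controls. Mgl2, a galactose-type lectin of alternatively activated macrophages and dendritic cells, had an adjusted p of 0.0374 by edgeR but a difference of 0.98 (SE 0.23), just under the 2-fold threshold. Mgl2 had 69 to 197 counts in Ptk6-/- control females and 580, 1355 and 430 in succinate females, and was not called in that stratum (adjusted p 0.336 by edgeR). In the average over females edgeR called Mgl2 (1.63, adjusted p 0.00839) and Il13 (adjusted p 0.00685) besides Retnlb and Ccl24. Thus 4 of the 17 rose in females (2.06% of all genes were called) and 0 in males (0.00461%). Called or not, 10 of the 17 were higher and 7 lower in females, and 8 were higher and 9 lower in males. Among those lower in females were Tgm2 (-0.51), Il13ra1 (-0.43), Stat6 (-0.33) and Il4ra (-0.30), none of them called. For sex by succinate edgeR called 0% of all genes in wild-type and 0.023% in Ptk6-/- mice. Il13 was at 0 counts in all 6 female controls and at 50, 28 and 4 counts in wild-type and 27, 175 and 37 counts in Ptk6-/- succinate females.

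Among genes of classical activation 1 was called, and it was lower. Nos2 fell by 2.26 on the log2 scale (SE 0.47, edgeR adjusted p 0.0214). It encodes the inducible nitric oxide synthase of inflammatory macrophages and also of gut epithelium. Nos2 was the only call among 9 tested genes of this list, so none was called as higher. The part of epithelium in the Nos2 values was not tested. Nos2 had 3295 to 9189 counts in wild-type control females and 143, 146 and 1389 after succinate. The average was -4.16 (SE 0.73, called, edgeR adjusted p 0.00272) in females and -0.36 (SE 0.64, edgeR adjusted p 0.876) in males. Ptk6-/- males had 183 to 402 CPM of Nos2 on water and 110.3, 1056 and 256 CPM on succinate. The difference between the sexes was not called, at -1.86 (edgeR adjusted p 0.933) in wild-type and -5.74 (edgeR adjusted p 0.174) in Ptk6-/- mice. The median of the list was -0.22. The 3 libraries with the most Retnla, wild-type succinate female replicates 1 and 2 and Ptk6-/- succinate female replicate 2, had 143, 146 and 95 counts of Nos2. Ptk6-/- succinate female replicate 3, with less Retnla, had 176 counts of Nos2, and replicate 1 had 1153.

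Mrc1 was not called in any comparison. Wild-type females had 4.97, 6.11 and 4.97 CPM on water and 7.84, 17.5 and 6.70 CPM on succinate. The libraries did not overlap, and the difference was 1.01 (SE 0.41, edgeR adjusted p 0.632). Non-overlap of this kind, higher on succinate, was seen in 5.96% of all genes in that comparison and in 1 of the 7 members tested. The highest of the 3 was the library with heart transcripts, and without that library the difference was 0.47. The part of the heart transcripts in it was not tested. In Ptk6-/- females Mrc1 had 10.04, 8.01 and 2.57 CPM on water and 9.66, 14.5 and 6.49 CPM on succinate, with overlap. In males its mean was 6.57 ± 0.45 CPM (SD, n = 3) on water and 6.98 ± 0.70 CPM on succinate in wild type, and 9.24 ± 3.65 and 6.54 ± 2.02 CPM in Ptk6-/-. The average succinate difference of Mrc1 was 0.30 (SE 0.22, edgeR adjusted p 0.514).

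**Figure D3:**
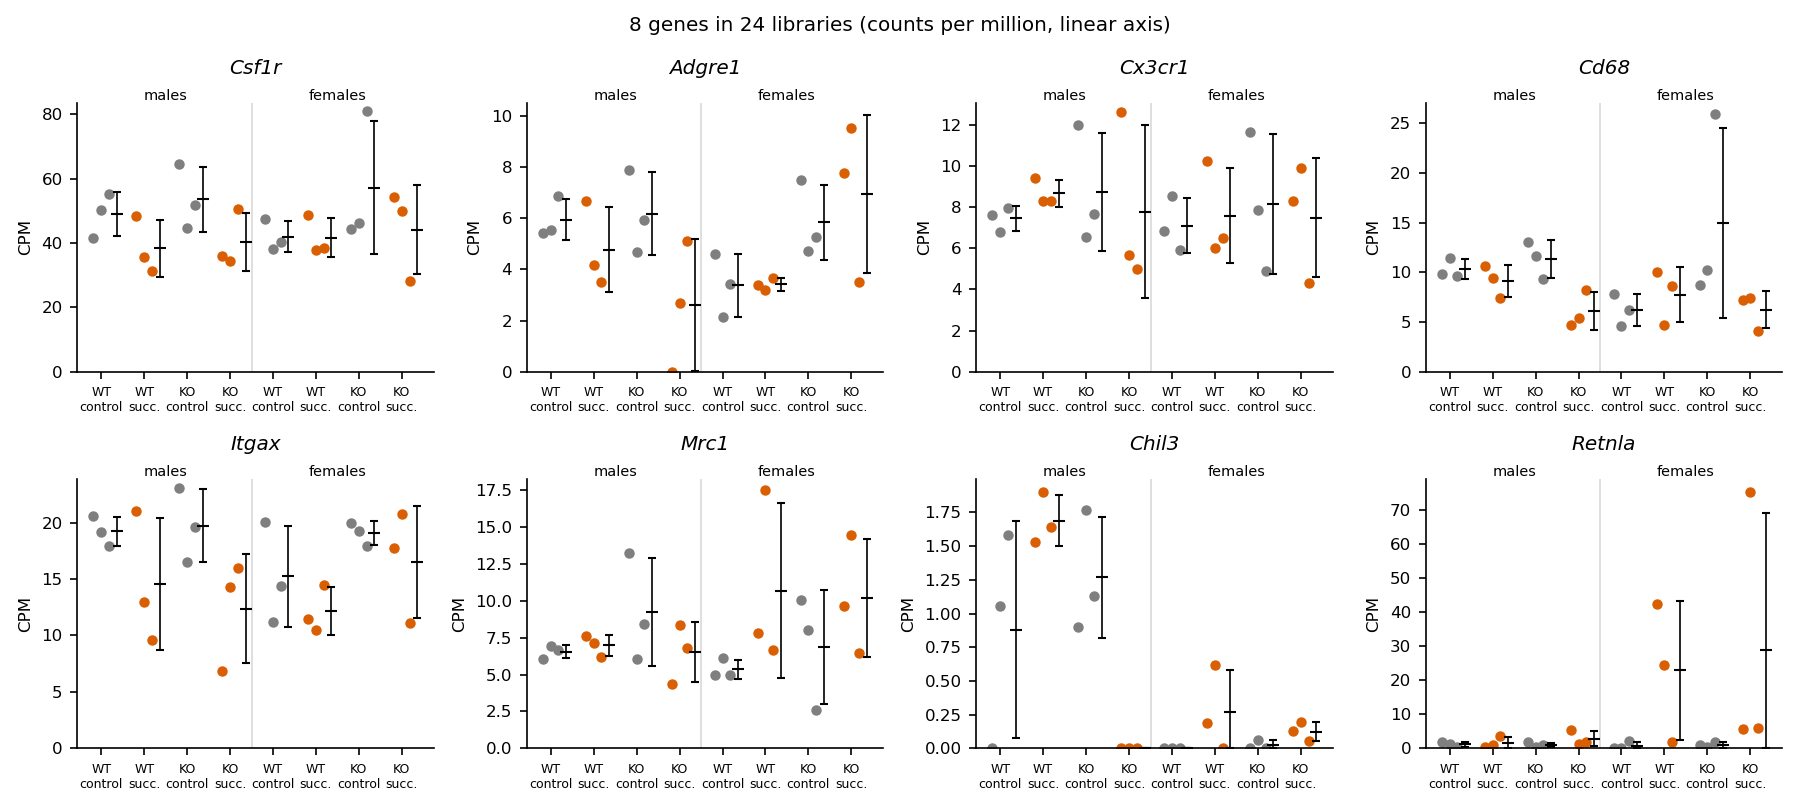
CPM (linear axes) of the 8 genes in 24 libraries, control in grey and succinate in orange; black marks give the mean and SD of 3 libraries, with bars stopped at 0. Retnla is highest in female succinate libraries, of which wild-type replicate 3 is as low as its controls, Chil3 is highest in male libraries but at 0 in the Ptk6-/- succinate males and 1 wild-type control, and the other 6 genes overlap between control and succinate in at least 2 of the 4 sex and genotype strata each.

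Chil3 divided the libraries by another rule than Retnla. Wild-type males had 0, 61 and 78 counts on water and 87, 94 and 68 on succinate, and Ptk6-/- males had 49, 89 and 52 on water. In Ptk6-/- males on succinate all 3 libraries had 0 counts. Females had 0 in every wild-type control, 0, 3 and 0 in Ptk6-/- controls, 8, 19 and 0 in wild-type succinate and 7, 10 and 3 in Ptk6-/- succinate libraries. Set against the floor of 3 counts per library, Chil3 in Ptk6-/- males on succinate was at least 3.90-fold lower than in their controls and at least 5.20-fold lower than in wild-type males on succinate. Both limits are set by the shallow replicate 1, and without it they were 16.7-fold and 22.3-fold. In neither case did the libraries overlap, as in 12% and 5.88% of all genes in that direction, but edgeR called neither (adjusted p 0.6003 and 0.382), while DESeq2 called both (adjusted p 0.000348 and 6.06e-05), as did voom with quality weights (adjusted p 0.00734 and 0.00132). DESeq2 called 0.206% and 0.354% of all genes in these comparisons, and voom 0.0844% and 9.52%. Wild-type females on succinate were at least 4.07-fold above the floor of their controls, from 8 and 19 reads in 2 of the 3 libraries, and without replicate 2, which carried the heart transcripts, the limit was 1.41-fold.

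The same libraries carried S100a8, a neutrophil calcium-binding protein, and Marco, a scavenger receptor of alveolar and other macrophages. In the 8 male libraries with 49 to 94 counts of Chil3, S100a8 had 112 to 234 counts and Marco 63 to 136. In the 4 other males S100a8 had 0 to 5 and Marco 0 counts. Females had 0 to 25 counts of S100a8 and 0 to 12 of Marco. Among 15507 genes compared S100a8 had the highest correlation with Chil3 (Pearson's r = 0.86 over 24 libraries on log2 CPM; without the 2 libraries rich in 18S ribosomal RNA it was 0.89, below Wfdc17 at 0.91), and that of Marco was 0.77. The control male without Chil3, wild-type replicate 1, was the library with most 18S ribosomal RNA, in which 3 counts are worth 0.243 CPM. The part of this shared pattern in the Chil3 differences was not tested. In GENCODE vM21, 26.9% of the 50-base stretches of Chil3 also occur in Chil4 or Gm6522, and Chil4 had at most 3 counts in any library.

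**Figure D4:**
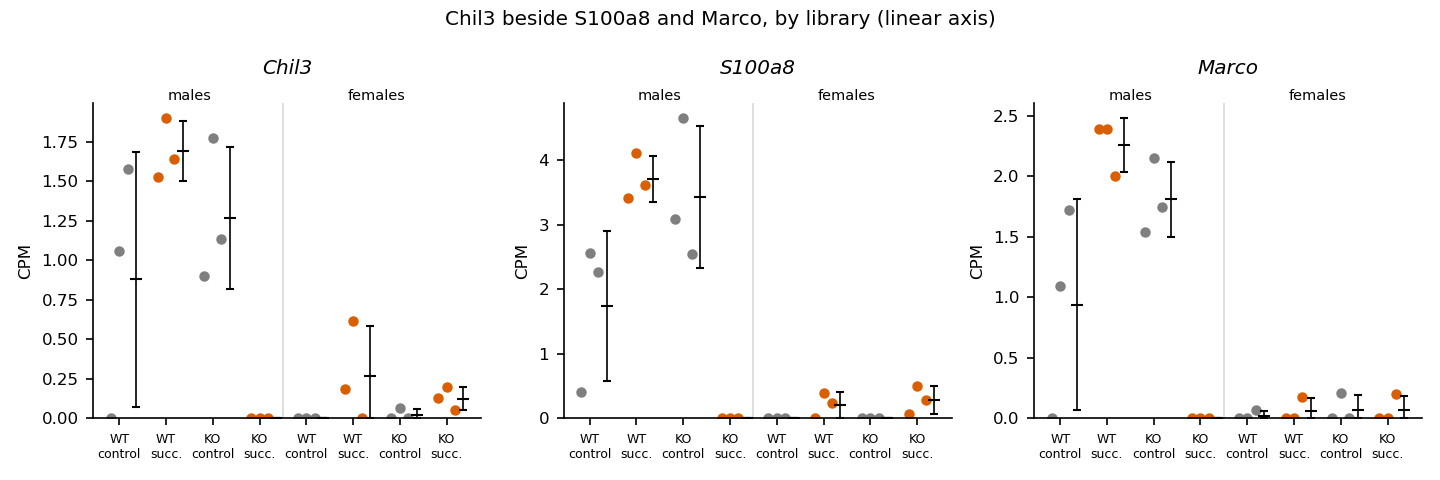
CPM (linear axes) of Chil3, S100a8 and Marco in 24 libraries, control in grey and succinate in orange, with black marks for the mean and SD of 3 libraries and bars stopped at 0. All 3 genes are present in 8 of 12 male libraries and at 0 counts in the 3 Ptk6-/- succinate males.

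None of the general macrophage receptors was called. Csf1r had group means between 38.4 and 57.2 CPM, with 41.9 ± 4.86 on water and 41.7 ± 6.09 on succinate in wild-type females. Its average succinate difference was -0.29 (SE 0.14) and was not called. Adgre1 had 4.60, 2.14 and 3.42 CPM in wild-type control females and 3.38, 3.18 and 3.68 on succinate, a near-complete overlap. In Ptk6-/- succinate males Adgre1 had 0, 2.70 and 5.12 CPM, the 0 being the shallowest library. Cx3cr1 was the steadiest, with an average succinate difference of -0.0056 (SE 0.19). In wild-type males alone Cx3cr1 was higher on succinate without overlap, 9.42, 8.30 and 8.30 against 7.604, 6.79 and 7.94 CPM, a difference of 0.21 (SE 0.22, edgeR adjusted p 0.947). There 4.62% of all genes did not overlap in that direction.

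The phagocyte genes Cd68 and Itgax were not called either. Averaged over the strata, Cd68 differed by -0.50 (SE 0.19, edgeR adjusted p 0.214) and Itgax by -0.40 (SE 0.16, edgeR adjusted p 0.233). Both had an unadjusted p under 0.05, as did 16.1% of all genes. Ptk6-/- females had 8.69, 10.3 and 26.0 CPM of Cd68 on water and 7.18, 7.40 and 4.09 CPM on succinate. Those libraries did not overlap, and the difference was -1.29 (SE 0.48, edgeR adjusted p 0.429), or -0.64 without Ptk6-/- control replicate 3. Non-overlap with lower values was found in 10.1% of all genes there. In Ptk6-/- males Cd68 had 13.1, 11.6 and 9.32 CPM on water and 4.66, 5.41 and 8.25 CPM on succinate, a difference of -0.85 (SE 0.29, edgeR adjusted p 0.6003). Itgax in the same males had 23.04, 16.5 and 19.6 CPM on water and 6.86, 14.3 and 15.9 CPM on succinate, a difference of -0.64 (SE 0.31, edgeR adjusted p 0.6003). With Chil3, 3 of 8 members were lower without overlap in these males, where 12% of all genes were. The lowest Cd68 and Itgax values both came from the shallow library rich in 18S ribosomal RNA. That library also had 8424 CPM of summed distal small intestine and colon genes, against 449 to 3343 CPM in the other libraries. Its sum of adipose genes was the highest, at 415 CPM. The part of gut region or fat in these values was not tested.

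**Figure D5:**
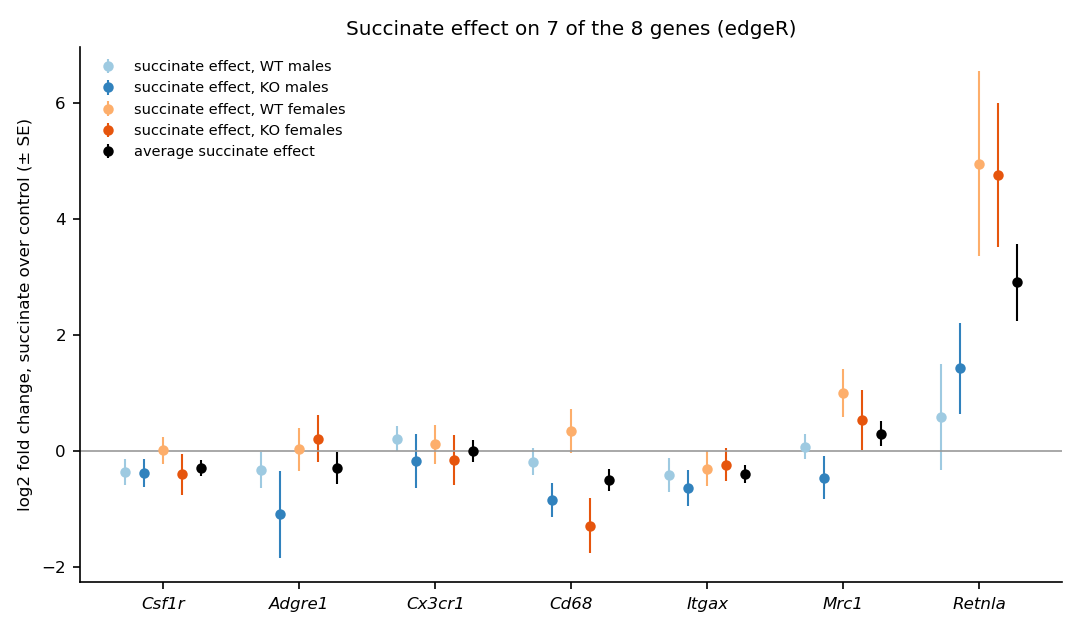
Log2 fold change of succinate over control (points) with its standard error (bars) for 7 of the 8 genes, in the 4 sex and genotype strata and on average (black). Retnla averages 2.91, the other 6 genes average between -0.50 and 0.30, and Chil3 is left out because some of its groups are at 0 counts.

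The genotypes were compared at the same treatment. Among control females all 7 tested members were higher in Ptk6-/- mice, by 0.24 to 1.29 on the log2 scale with a median of 0.48 against 0.04 for all genes, yet none was called (0.0158% of all genes were). Markers of other cells and tissues were also higher there. Lung genes summed to 17.3 to 24.02 CPM in the Ptk6-/- controls against 7.46 to 8.92 CPM in wild type, and all 6 B cell genes were higher (median 2.48, 4 with an unadjusted p under 0.05, none called). Their part in the members' differences was not tested. Cd68 was higher by 1.29 (SE 0.44, edgeR adjusted p 0.385) and Adgre1 by 0.83 (SE 0.36, edgeR adjusted p 0.451), both without overlap. Without Ptk6-/- control female replicate 3 the Cd68 difference was 0.66. Adgre1 had 7.51, 4.74 and 5.28 CPM in Ptk6-/- control females against at most 4.60 CPM in wild type. Non-overlap in that direction held for 8.51% of all genes. On succinate, of the 7 members tested in females, Adgre1 differed most between genotypes, at 1.02 (SE 0.42, edgeR adjusted p 0.931), with overlap. In control males, where 0.739% of all genes were called, no member was, and the largest difference was that of Mrc1 at 0.48 (SE 0.28, edgeR adjusted p 0.329). In succinate males and females, where edgeR called 0% of all genes, it called no member, and Chil3 in males was called by DESeq2 and voom as given above. At an unadjusted p under 0.05 there were 0, 1, 1 and 1 members in control males, control females, succinate males and succinate females, beside 25.2%, 11.1%, 2.72% and 4.52% of all genes. On average over sex and treatment the 3 members with the smallest p were Csf1r (0.18, SE 0.14), Adgre1 (0.28, SE 0.28) and Itgax (0.15, SE 0.16), with adjusted p of 0.547 to 0.681 by edgeR, and none was called (0.0184% of all genes were) or had an unadjusted p under 0.05 (13.4% of all genes had).

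For sex averaged over genotype and treatment edgeR called no member, while DESeq2 and voom with quality weights called Chil3 (and 1.49% and 1.39% of all genes), for which edgeR gave no usable standard error. Retnla was higher in females by 1.71 on average (SE 0.64, edgeR adjusted p 0.222), where 0.36% of all genes were called, a value that includes the succinate libraries. It was 1.06 without wild-type control female replicate 3 and 1.11 without Ptk6-/- succinate female replicate 2. Retnla was the 1 member with an unadjusted p under 0.05 for sex, as 15.3% of all genes had. By edgeR no member was called in any of the 6 interaction contrasts, in which 0% to 0.023% of all genes were called. DESeq2 called Chil3 for genotype by succinate in males (adjusted p 0.0285, 0.493% of all genes called) and for sex by succinate in Ptk6-/- mice (adjusted p 0.00802, 0.871% called). At an unadjusted p under 0.05 there was 1 member in each genotype by succinate contrast (3.95% of all genes in males, 8.21% in females), 2 and 1 in the sex by succinate contrasts of wild-type and Ptk6-/- mice (6.12% and 8.73%), 1 in the sex by genotype contrast of controls (2.4%) and 0 in the interaction of sex, genotype and succinate (5.99%). Among them Cd68 had the smallest p of those with reads in every group: its succinate difference in females was lower in Ptk6-/- than in wild-type mice by 1.59 (log2 difference -1.59, SE 0.54, edgeR adjusted p 0.468), or -0.96 without Ptk6-/- control female replicate 3.

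In the lists of general macrophage, resident macrophage, recruitment, monocyte and dendritic cell genes edgeR called none for succinate on average. Of 12 macrophage markers 7 were higher and 5 lower on average, with a median of 0.11. The smallest p among them were those of Lyz2 (-0.56, adjusted p 0.132) and Cd14 (-0.49, adjusted p 0.197), by edgeR. Of 7 resident macrophage surface genes 3 were higher and 4 lower (median -0.05). Of 9 growth factors and chemokines for these cells 3 were higher and 6 lower (median -0.21), and Ccl8, a chemokine of resident macrophages, had the smallest p at 1.15 (adjusted p 0.241 by edgeR). Of 5 monocyte genes 2 were higher and 3 lower (median -0.22), with Itgam at -0.58 (adjusted p 0.220 by edgeR). Of 9 dendritic cell genes 3 were higher and 6 lower (median -0.10), with Irf8 at -0.44 and Batf3 at 1.11, neither called. The summed macrophage markers ranged from 457 to 661 CPM in wild-type control females and from 466 to 583 CPM on succinate, and from 440 to 985 and 267 to 669 CPM in Ptk6-/- females.

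Genes whose levels ran with each member across the 24 libraries were listed by Pearson's r on log2 CPM among 15507 genes, as a description. The nearest to Retnla were Igf1 (0.82), Ccl24 (0.79) and Ldlrad4 (0.78). Those nearest to Cd68 were Dnase1l3 (0.84), Shisa5 (0.83) and Csf1r itself (0.78), and those nearest to Itgax were Myo1f (0.87), Itgb2 (0.85), the partner chain of CD11c, and C1ra (0.84). Csf1r ran with Igkv14-111 (0.80), Cd68 (0.78) and Bmp4 (0.75), Mrc1 with Phldb2 (0.86), Ackr3 (0.85) and Trak2 (0.85), and Cx3cr1 with Rab7b (0.81), Gfra3 (0.68) and Noc2l (0.67). Chil3 was followed, after S100a8, by Wfdc17 (0.79) and Fcna (0.77). For Adgre1 the nearest were Gatm, Lpcat2 and Themis2, all at 0.98, which fell to 0.82, 0.76 and 0.73 without the 2 libraries rich in 18S ribosomal RNA. Without those 2 libraries the first gene named was at 0.84 for Retnla, 0.85 for Cd68, 0.82 for Itgax, 0.81 for Csf1r, 0.86 for Mrc1 and 0.77 for Cx3cr1. The libraries differ in depth and 18S content, so these likenesses may not be independent of them.

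In the deposited coordinates (GRCm39) Retnla spans 48662914 to 48664824 of chromosome 16 and Chil3 spans 106054870 to 106074880 of chromosome 3. Mrc1 lies at 14234203 to 14336868 of chromosome 2 and Adgre1 at 57665691 to 57790527 of chromosome 17. Cx3cr1 lies at 119877749 to 119898945 of chromosome 9, Cd68 at 69555039 to 69556979 of chromosome 11 and Itgax at 127728719 to 127749829 of chromosome 7. Csf1r is on chromosome 18 and shares 14.3% of its 50-base transcript stretches with Hmgxb3 on the opposite strand, and Itgax shares 8.02% with Itgad, so part of those reads cannot be assigned to 1 gene unless strand or a longer match was used.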

How the data were processed

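RNA of the distal jejunum, 1 library per mouse, was extracted with TRIzol, selected for poly(A) and sequenced from stranded libraries as paired reads. Per the study's methods, reads were trimmed with Cutadapt, aligned with HISAT2 and assembled with StringTie. The deposited counts are whole reads per gene, and for the deposited FPKM values the authors used StringTie followed by ballgown. The submitters' processing notes name GRCm39. The counting program and annotation release are not given in the sources used here. A count depends on which of several overlapping genes a read was given to, and FPKM falls where ribosomal RNA takes a larger share.

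The main test was the quasi-likelihood test of edgeR 4.0.16 (R 4.3.3) with TMM scaling, and standard errors are the log2 fold change over the root of its F. A gene was tested where 3 or more libraries of a fit had 10 counts or more, p-values were adjusted over the whole table (Benjamini-Hochberg), and a call needed an adjusted p below 0.05 and a 2-fold change. The 8 comparisons of 2 groups used their 6 libraries, and the 9 averages and interactions used all 24 in 1 model. With 3 libraries against 3, an exact permutation test cannot go below p = 0.1, so none is given within a stratum. Library totals ranged from 8080321 to 52824743 counts, and floors (3 counts) cover counting error only. No 2 libraries held identical counts. The scripts were tested on simulated counts with known changes.

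Genes named with a fold change were those called, those whose groups did not overlap and the largest of a comparison, and in the 24-library contrasts those called and the 3 with the smallest p. The 8 genes and the 21 lists of other genes were chosen with earlier results of these data known, and 1 further gene of the set is not reported here. Alternatives were DESeq2 1.42.0, its size factors, no filter or a strict filter, a replicate block, a length offset, voom weights, log2(FPKM + 1) and log2(FPKM + 0.1) with limma over genes of a mean FPKM of at least 0.5, and 72 fits without 1 library. Replicates are separate mice. Same-numbered libraries did not deviate together. Promoter windows and transcripts came from RefSeq (GRCm38.p6) and GENCODE vM21.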

Additional observations from a re-analysis of the deposited data

How the results depend on the processing

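Retnla kept its direction in the average succinate effect under every alternative run, and all other members stayed uncalled except Chil3. The number of members called for the average succinate effect was 1. It was 0 with the replicate block (Retnla 2.99, adjusted p 0.0611, edgeR), where the replicate numbers do not pair the mice: same-numbered libraries correlated between -0.29 and 0.19 in their deviations. The block changed no other call. It was also 0 with at least 10 counts in every library, which leaves Retnla untested, in the contrast over males, and without the 2 libraries with most 18S ribosomal RNA (Retnla 2.84, adjusted p 0.0879); these last settings were chosen after seeing the data. Leaving out 1 library gave between 0 and 1 called members. The call remained without wild-type succinate male replicate 1, Ptk6-/- succinate male replicate 2, wild-type control female replicates 1 and 3, wild-type succinate female replicate 3, Ptk6-/- control female replicate 3 or Ptk6-/- succinate female replicates 1 and 3. It was lost without any 1 of the other 16, at adjusted p of at most 0.1004.

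Chil3 was the 1 member called by DESeq2 and by voom with quality weights for succinate in Ptk6-/- males, for genotype in succinate males and for the average sex effect, and by DESeq2 also for the genotype by succinate contrast in males and the sex by succinate contrast in Ptk6-/- mice. edgeR gave 0 in these 5 comparisons. Each involves a group with 0 counts of Chil3 in all 3 libraries; the cause of the tools' difference was not tested. Differences that were not called reversed in 3 contrasts. Cd68 went from -0.14 to 0.0020 in the average sex effect on log2(FPKM + 0.1). Cd68 went from -0.89 to 0.30 on log2(FPKM + 1) and 0.52 on log2(FPKM + 0.1) in the interaction of sex, genotype and succinate. Mrc1, at 0.13 in the average sex effect, ran from -0.014 to 0.21 when 1 library was left out, the lowest without wild-type succinate female replicate 2. Itgax, at 0.36 in the interaction of sex, genotype and succinate, was -0.34 by voom with quality weights and ran from -0.0029 to 0.59 when 1 library was left out, the lowest without wild-type succinate male replicate 1. Chil3 ran from -0.47 to 3.27 in the sex by genotype contrast of controls when 1 library was left out, the lowest without Ptk6-/- control female replicate 2, its only female control with reads. Depth limits Chil3 most, with a median of 5 counts per library.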

Other observations

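Genes of the epithelial side of the type 2 response were also called. Of 9 tuft cell genes 7 rose on succinate in the average over sex and genotype and none fell (median log2 difference 1.68), among them Avil (1.67), Trpm5, the taste cation channel (1.56), and Sh2d6 (1.898). In the contrasts of each sex 7 of the 9 were called in females (2.06% of all genes) and 0 in males (0.00461% of all genes), with values of 2.86 and 0.48 for Avil, 2.41 and 0.72 for Trpm5 and 2.99 and 0.80 for Sh2d6, but edgeR's tests of the sex difference called none of these 3 (adjusted p 0.0807 to 0.757). Of 6 genes of the type 2 epithelial response, a list that also holds the cytokine gene Il13, 5 rose (median 3.14). They were Retnlb, the phospholipase gene Pla2g4c (5.80) and the gasdermin genes Gsdmc2 (2.67), Gsdmc4 (2.55) and Gsdmc3 (2.43). By sex, edgeR called all 6 in females (median 5.77) and only Pla2g4c in males (median 1.24). Siglecf, carried by eosinophils and also by intestinal tuft cells, rose by 1.78 (SE 0.29, edgeR adjusted p 0.00198), as the only call among 4 tested eosinophil genes (median 0.69), while the eosinophil peroxidase gene Epx had at most 11 counts in any library. All 4 were higher in females (median 2.15), and 2 were higher and 2 lower in males (median -0.62). The eosinophil sum, Siglecf included, was 8.94 to 22.5 CPM in wild-type and 13.5 to 34.9 CPM in Ptk6-/- succinate females. In their controls it was 2.83 to 3.57 and 2.66 to 4.68 CPM. The part of eosinophils in the Retnla values was not tested.

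Among the other lists, in the average over sex and genotype, none of 7 T and intraepithelial lymphocyte genes was called and all 7 were lower (median -0.58), with Gzmb at -1.02. In females alone Gzmb (-1.70, adjusted p 0.0380) and Cd3e (-1.02, adjusted p 0.0452) were called by edgeR, with -0.33 and 0.10 in males, and the sex difference of neither was called (edgeR adjusted p 0.416 to 0.965). None of 6 B cell genes was called (median 0.54) and none of 7 enterocyte genes (median -0.63). Car4 rose by 1.85 among 3 tested genes of the distal gut. In females edgeR called Car4 as higher (2.66) and Slc10a2 as lower (-1.86), Fabp6 was at -2.52, and the median was -1.86. In males all 3 were higher (median 1.04) and none was called. Actg2 rose by 1.12 among 6 smooth muscle genes (median 0.79). Actc1 rose by 3.62 among 8 heart genes (median 2.27), whose sum was 20612 CPM in wild-type succinate female replicate 2 and 16.0 to 233 CPM elsewhere; without that library Actc1 was at 2.15 (edgeR adjusted p 0.00721). No call was made among 5 neutrophil (median 0.73), 9 lung (median 0.88), 5 alveolar macrophage (median 0.86), 7 adipose (median 0.15) or 6 peritoneal genes (median -0.18). In the contrast of females the calls of these lists that are not in the average were S100a8, Ear2 and Krt79, which were higher, and Gzmb, Cd3e, Fabp2 and Slc10a2, which were lower.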
